A study of Rattus norvegicus with 32 samples.

Results

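The comparison of cycle day 4 with cycle day 1 asked how far the mammary gland of the adult virgin rat had come back to its starting state by the last day of a 4-day estrous cycle. Its members were the 15 arrays, of 32 in the series, whose titles placed them between 7.0 and 17.6 h (day 1, 8 rats) or between 79.3 and 88.1 h (day 4, 7 rats) after midnight of the first cycle day. All were nulliparous Sprague Dawley rats with regular cycles that received no treatment, and each array held the gland of a single rat, with the lymph nodes removed. The study placed estrus on day 2. Rats were killed in the daytime, at clock hours from 7.0 to 17.6 h on day 1 and from 7.3 to 16.1 h on day 4, with means of 12.36 and 11.76 h. The 8 rats of day 2 and the 8 of day 3 entered only as points of comparison and to estimate the spread between rats and the effect of clock hour.

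The cycling mammary gland is a tree of ducts with an inner luminal and an outer contractile basal layer, set in a fat pad. Ovarian estrogen and progesterone rise and fall with each cycle. A subset of luminal cells carries their receptors and passes the signal on to neighbouring cells, which divide and are partly removed again when hormone levels fall. In RNA from the whole gland, fewer cells of a type and less RNA per cell cannot be told apart.

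Each transcript was read by 1 or more probe sets (sets of short oligonucleotides that match it) on the Affymetrix Rat 230 2.0 array. The deposited values are linear intensities, which are relative and cannot be set against those of another probe set. Array medians lay between 49.9 and 53.1 for day 1 and between 50.2 and 53.5 for day 4. For 21068 probe sets limma compared the 4 days on log2 intensity while allowing for a linear effect of clock hour, and p-values were adjusted by the method of Benjamini and Hochberg over all of them with a threshold of 0.05. Markers of the expected tissues were present: 19 of 19 luminal epithelial, 15 of 15 basal and 17 of 18 adipocyte markers passed the intensity filter. Skeletal muscle markers, which stand for muscle taken with the gland, varied most between rats. These markers had a mean log2 level, around their overall mean, of -3.88 to 2.55 on day 1 and -3.53 to 2.38 on day 4. Where that muscle came from was not tested.

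Between day 4 and day 1, 5 probe sets passed the threshold. A single one was higher on day 4, or 0.00475% of those tested, and 4 were lower, or 0.019%. The lower ones were Calml3, a calmodulin-like protein of epithelial cells, Thbs2, a secreted matrix protein that restrains vessel growth, Nampt, the enzyme that salvages NAD from nicotinamide, and Sae1, a subunit of the enzyme that activates SUMO. The higher one was LOC102552398, listed by RefSeq as a long non-coding RNA. At an unadjusted p under 0.05, 727 probe sets were higher (3.45%) and 636 lower (3.02%), together 6.47%.

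Calml3 read from 292 to 1141 on day 1, with a median of 624, and from 129 to 349 on day 4, with a median of 172. In 6 of 7 day 4 rats it was below the lowest day 1 rat. It fell by 1.65 on the log2 scale (SE 0.26, limma adjusted p = 0.0124), a 3.13-fold lower level, and differed on day 4 from day 3 by 0.08 (SE 0.27).

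Thbs2 read from 179 to 311 on day 1 (median 268) and from 79.0 to 196 on day 4 (median 142), again with 6 of 7 day 4 rats below all of day 1. It fell by 1.0 on the log2 scale (SE 0.17, limma adjusted p = 0.0205), or 2.0-fold. Nampt did not overlap between the days, with 1164 to 1737 on day 1 (median 1271) and 820 to 1104 on day 4 (median 939). Its decrease was small, at -0.52 on the log2 scale (SE 0.09, limma adjusted p = 0.0188). A dimmer probe set of the same gene differed by -0.58 (SE 0.16), with a limma adjusted p of 0.300.

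Sae1 read from 923 to 1783 on day 1 (median 1528) and from 689 to 1056 on day 4 (median 943). The groups overlapped through the day 1 rat of 13.0 h, which held the 923, and the other day 1 rats read 1388 or more. The difference was -0.75 (SE 0.14, limma adjusted p = 0.0382). LOC102552398 had the widest range of the 5: 11 to 798 on day 1 (median 55.1) against 404 to 1238 on day 4 (median 589). The 798 belonged to the same rat of 13.0 h, and the other 7 rats of day 1 read 100 or less, down to values just above the filter of 10. It rose by 3.61 on the log2 scale (SE 0.67, limma adjusted p = 0.0382).

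**Figure D1:**
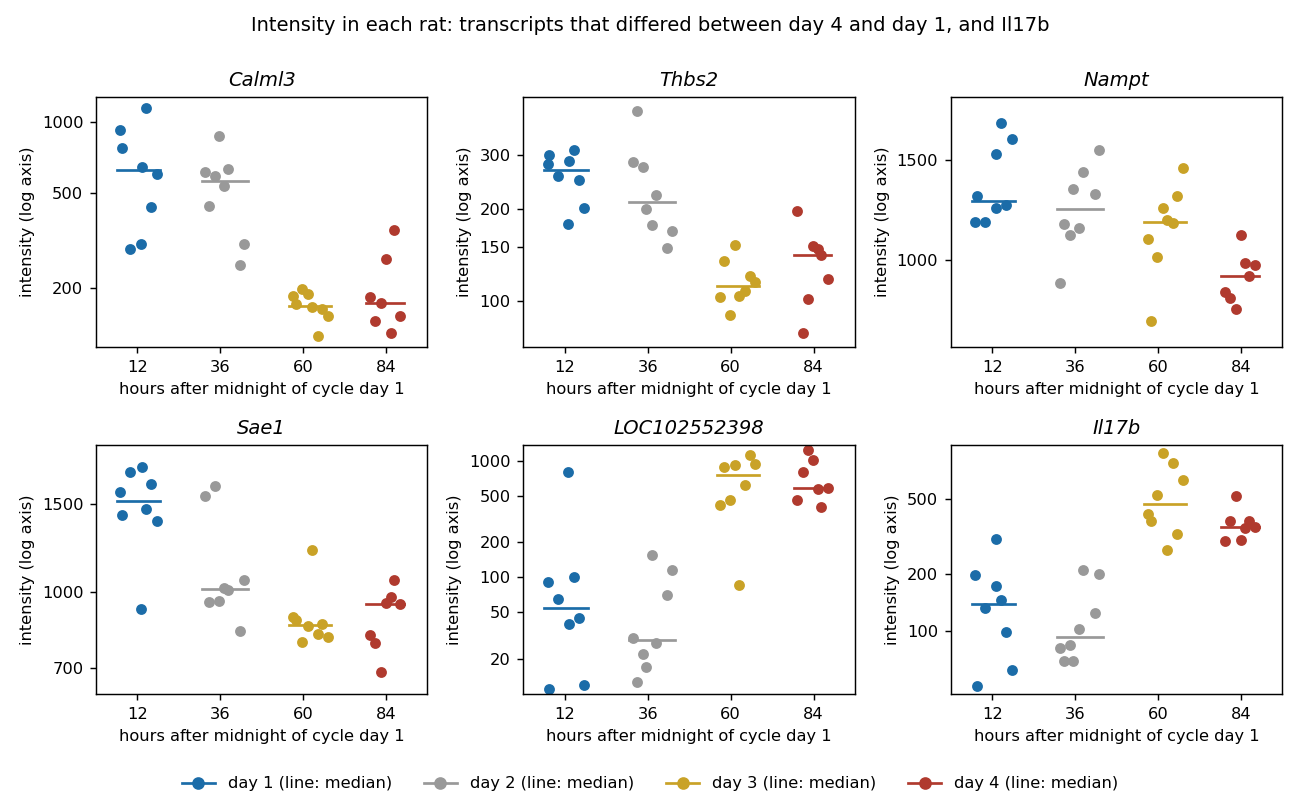
Intensity (log axis) in each of 31 rats against hours after midnight of cycle day 1, for the 5 called transcripts and Il17b; lines are day medians. Day 4 sits near day 3 and apart from most of day 1 in all panels but Nampt, where its median of 939 is also below the day 3 median of 1167, and the day 1 rat of 13.0 h lies with day 4 for Sae1 (923) and LOC102552398 (798).

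These 5 calls differed in how far they withstood other settings. Of the alternative fits in which each was tested, Calml3 passed in 24 of 26, Nampt in 18 of 26, Thbs2 in 18 of 26, Sae1 in 7 of 26 and LOC102552398 in 7 of 25. In the fit of the 15 arrays alone, days 2 and 3 gave no help in estimating the spread or the clock slope. There none of the 5 passed, and Calml3 had a limma adjusted p of 0.142. Their directions held in every alternative fit.

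Sequences upstream of the called genes are given to show where their transcripts begin. RefSeq promoters on GRCr8, from 250 bases before to 50 after the start, were at hand for Calml3, LOC102552398 and Sae1 among the 5. They were searched on both strands for AGGTCA, part of the site of the estrogen receptor, AGAACA, part of the site of the progesterone and glucocorticoid receptors, the E-box CACGTG bound by clock factors, and the TATA box TATAAA. Capitals mark a match.
Calml3, chr17:71331276-71331575, plus strand: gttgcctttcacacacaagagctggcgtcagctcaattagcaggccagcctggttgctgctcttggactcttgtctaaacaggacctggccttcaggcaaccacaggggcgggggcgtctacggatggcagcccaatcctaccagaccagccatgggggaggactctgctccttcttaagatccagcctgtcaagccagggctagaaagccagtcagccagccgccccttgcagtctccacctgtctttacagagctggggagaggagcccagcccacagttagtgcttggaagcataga
LOC102552398, the upstream one of its listed starts, chr8:71175907-71176206, minus strand: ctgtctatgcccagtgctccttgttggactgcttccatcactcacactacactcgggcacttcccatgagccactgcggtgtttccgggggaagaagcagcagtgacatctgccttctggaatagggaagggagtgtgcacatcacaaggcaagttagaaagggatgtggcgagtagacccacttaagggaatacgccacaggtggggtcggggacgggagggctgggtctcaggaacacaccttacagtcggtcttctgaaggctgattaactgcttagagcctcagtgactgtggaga
Sae1, chr1:86215040-86215339, minus strand: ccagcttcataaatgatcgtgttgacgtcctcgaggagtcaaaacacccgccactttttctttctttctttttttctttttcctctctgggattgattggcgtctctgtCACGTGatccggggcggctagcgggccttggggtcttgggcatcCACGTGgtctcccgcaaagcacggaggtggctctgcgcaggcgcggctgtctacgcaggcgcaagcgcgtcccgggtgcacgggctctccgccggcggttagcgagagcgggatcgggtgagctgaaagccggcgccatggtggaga
Only the Sae1 window held a match, with 2 copies of CACGTG. Of 33469 promoters of this length, 6.42% held that motif, 16.2% held AGGTCA, 20.7% held AGAACA and 14.2% held TATAAA. A match of letters is a description and not a binding site.

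Below the threshold, the next genes by p-value were Il17b, a secreted cytokine, Pou2af3, a transcriptional coactivator, and Ppip5k1, an inositol phosphate kinase. Il17b read from 51.1 to 308 on day 1 (median 139) and from 301 to 517 on day 4 (median 356), and 5 of 7 day 4 rats exceeded all of day 1. The difference was 1.56 (SE 0.31, limma adjusted p = 0.0713). Pou2af3 differed by 0.62 (SE 0.12) and Ppip5k1 by -0.62 (SE 0.12), with the same adjusted p. Flrt3, an adhesion protein, followed with 0.49 (SE 0.10, limma adjusted p = 0.107).

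The 6 genes that filled up the higher side by smallest p were Ttpa, Nat8l, Lrrc36, Clec11a, Fbxl22 and Igsf10, with log2 differences between 0.60 and 0.95 and adjusted p between 0.171 and 0.223. Those on the lower side were the uncharacterised LOC100910319 at -1.23, Irx2, a homeobox transcription factor, at -0.63, Slc18a2, a monoamine carrier, at -0.67 (its other probe sets at -0.29 and -0.15), Plet1, a surface protein of epithelial progenitors, at -0.93, and Spon1, a matrix protein, at -0.44. Their adjusted p ran from 0.171 to 0.189. Plet1 read 371 to 1218 on day 1 and 332 to 714 on day 4, and its other 2 probe sets differed by -0.84 and -0.94, so all 3 had the same sign.

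Full separation of the rats was rare. The 8 day 1 and 7 day 4 rats did not overlap for 13 probe sets that were higher on day 4 (0.0617%) and for 2 that were lower (0.00949%), Nampt and a probe set without a symbol. The higher ones included Acaca and Tkt of fatty acid synthesis, Myh11 and Myl9 of smooth muscle myosin, Uqcrc2 of the respiratory chain, Pdk1, a kinase that limits entry of pyruvate into mitochondria, Nat8l and Csap1. None of these 13 passed the adjusted threshold. Pdk1 and Myl9 are named here after their values were seen.

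For most transcripts the difference was not only uncalled but bounded. The 95% confidence interval of day 4 minus day 1 lay wholly within 1 log2 unit of 0 for 20514 probe sets, or 97.4%, and the median absolute difference was 0.081. The same share was 98.1% for days 2 and 1 and 96.6% for days 3 and 1. The median absolute difference was 0.081 between days 2 and 1 and 0.104 between days 3 and 1. Day 3 against day 1 gave 85 higher and 152 lower probe sets and day 2 against day 1 gave 1 and 0. Day 4 against day 3 gave 0 calls by limma, with 5.79% of probe sets at an unadjusted p under 0.05. Day 4 against day 2 gave 6 higher and 3 lower. These comparisons share rats, so their counts are not independent, and whether the counts differ was not tested.

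How much of the change after estrus was left was read from probe sets chosen by the difference between days 3 and 2. The rats of days 1 and 4 entered that choice only through the spread and clock slope of the shared fit. Day 3 differed from day 2 by limma in 43 probe sets that were lower (0.204%) and 14 that were higher (0.0665%), and day 4 minus day 1 was then read for them. All 43 lower ones were also below 0 between day 4 and day 1, with a median of -0.20 and a range from -1.84 to -0.00 after rounding. All 14 higher ones were above 0, with a median of 0.35 and a range from 0.12 to 3.61. Over all 21068 probe sets the day 4 minus day 1 difference had the sign of day 3 minus day 2 for 58.6%, and 47.6% were below 0.

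At an unadjusted p under 0.05, 19 of the 43 and 8 of the 14 differed between day 4 and day 1, against 3.02% lower and 3.45% higher over all probe sets. Of these, 2 and 1 passed the adjusted threshold: Calml3, Thbs2 and LOC102552398. In the fit of the 15 arrays alone the signs were the same in 43 of 43 and 14 of 14, with medians of -0.21 and 0.34. When the choice too was redone on the 16 arrays of days 2 and 3 alone, a step added after the data were seen, 8 probe sets were lower (0.038%) and 6 higher (0.0285%). All 8 and all 6 had the same sign between day 4 and day 1 on the 15 arrays, as did 58.2% of all probe sets, with medians of -0.48 and 0.50. Taking by smallest p as many as before, 41 of 43 and 14 of 14 had it, with medians of -0.16 and 0.32. Genes that move together in a gland are not independent of each other, and several of the 43 share a gene.

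As mean log2 levels around the mean of 31 rats, the 43 ran from -0.04 to 0.46 on day 1 (median 0.31), 0.09 to 0.53 on day 2 (median 0.42), -0.61 to -0.32 on day 3 (median -0.55) and -0.33 to 0.11 on day 4 (median -0.09). Day 4 lay between day 3 and day 1, and overlapped day 1 only where the day 1 rat of 13.0 h, at -0.04, stood below a day 4 rat at 0.11. The 14 ran from -0.84 to 0.30 on day 1 (median -0.24), -0.96 to -0.21 on day 2 (median -0.55), 0.06 to 0.92 on day 3 (median 0.54) and 0.21 to 0.67 on day 4 (median 0.38). Here day 4 lay inside the range of day 3, and the rat of 13.0 h held the highest day 1 value.

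**Figure D2:**
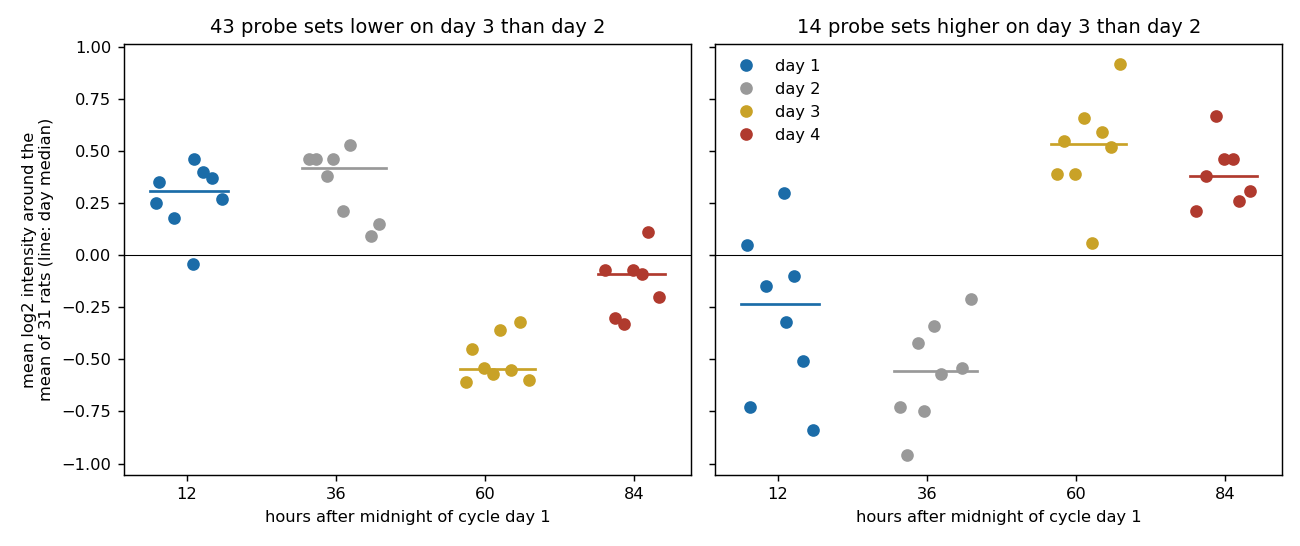
Mean log2 intensity around the mean of 31 rats, for 43 probe sets lower (left) and 14 higher (right) on day 3 than on day 2, against hours after midnight of cycle day 1; points are rats and lines day medians. The choice rested on the difference between days 2 and 3 in the fit of 31 arrays; day 4 medians of -0.09 and 0.38 lie on the day 3 side of the day 1 medians of 0.31 and -0.24.

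Among the 10 genes with a symbol that had the largest decreases from day 2 to day 3, each counted once, Cyp2e1, a cytochrome of xenobiotic metabolism, read 186 to 1383 on day 1 (median 472) and 43.2 to 226 on day 4 (median 118). Of 7 day 4 rats, 5 were below all of day 1, and the difference was -1.84 (SE 0.48, limma adjusted p = 0.258). Smim38, a small membrane protein, differed by -1.35 (SE 0.34, limma adjusted p = 0.243) and Nceh1, a cholesterol ester hydrolase, by -0.86 (SE 0.23, limma adjusted p = 0.258). Slc18a2, by the 1 of its 3 probe sets with the largest decrease there, was at -0.29. Serpina3n, a protease inhibitor, at -0.51, Npw, a neuropeptide precursor, at -0.62, Gpatch4, a nucleolar protein, at -0.44 and Akr1c3, a steroid reductase, at -0.40 were smaller.

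Others of the 43 were named after their values were seen. Sox17, a transcription factor of vessel endothelium, was at -0.29 (SE 0.14), beyond the median of -0.20 of the 43. A brighter probe set of Sox17, not among the 43, was at -0.19 (SE 0.18). Closer to day 1 were Mmrn2, an endothelial matrix protein, at -0.08, Adgrl4, an endothelial adhesion receptor, at -0.16 and Scarb1, the receptor of high-density lipoprotein, at -0.05.

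Likewise, of the 10 genes with a symbol and the largest increases from day 2 to day 3, LOC102552398 and Il17b are described above, and the other 8 differed from day 1 by less than 1 log2 unit. Ska2l1 was at 0.96 and Mcm8, a helicase of DNA repair, at 0.49. The epithelial S100 protein S100a14 was at 0.47, Dpep1, a dipeptidase, at 0.34 and Prxl2a at 0.33. Scd2, a fatty acid desaturase, at 0.29, Slc4a11 at 0.20 and Ggh, a folate hydrolase, at 0.18 were nearer to 0. Adjusted p ran from 0.523 to 0.947 for these 8.

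A single day 1 rat moved many of these values. The rat of 13.0 h was the lowest of day 1 for Sae1 (923), Plet1 (371), Stc2 (44.3), Cited4 (46.1), Greb1 (46.1), Pgr (132) and Thbs2 (179), and the highest for Il17b (308) and LOC102552398 (798). Its marker lists were unremarkable for fat (0.28, inside the day 1 range from -0.60 to 0.42) and lowest of day 1 for luminal markers (-0.24) and for hormone-sensing genes (-0.06). Without it, 14 probe sets were higher and 25 lower on day 4, and all 5 of the calls above passed. The part of its luminal content in this was not tested. Its place in day 1, like that of every rat, was read here from its title. The paper states that daily lavages selected rats with regular cycles and that cervical histology checked the stage at death. For the genes listed here, at which it was the day 1 extreme, the rat of 13.0 h lay within the range of day 4. It lay outside that range for genes whose days did not overlap. Among them were Nampt (1233 against 820 to 1104), Acaca (2702 against 3291 to 8175) and Tkt (1831 against 1952 to 4350).

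Among the 39 passing without that rat were Il17b at 1.74 (limma adjusted p = 0.00652), Ppip5k1 at -0.71 (adjusted p = 0.00379), Plet1 at -1.1 (adjusted p = 0.00652) and Stc2, a secreted glycoprotein that estrogen induces, at -1.65 (adjusted p = 0.0281). Stat5a, the transcription factor of prolactin signalling, was at -0.73 (adjusted p = 0.0395) and Slc7a7, an amino acid carrier, at -1.41 (adjusted p = 0.0233). The last 2 were named after their values were seen. The rats left out one at a time otherwise gave between 0 and 5 probe sets in all: 1 without the rat of 7.5, 13.2, 14.6 or 82.5 h and 0 without that of 88.1 h.

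**Figure D3:**
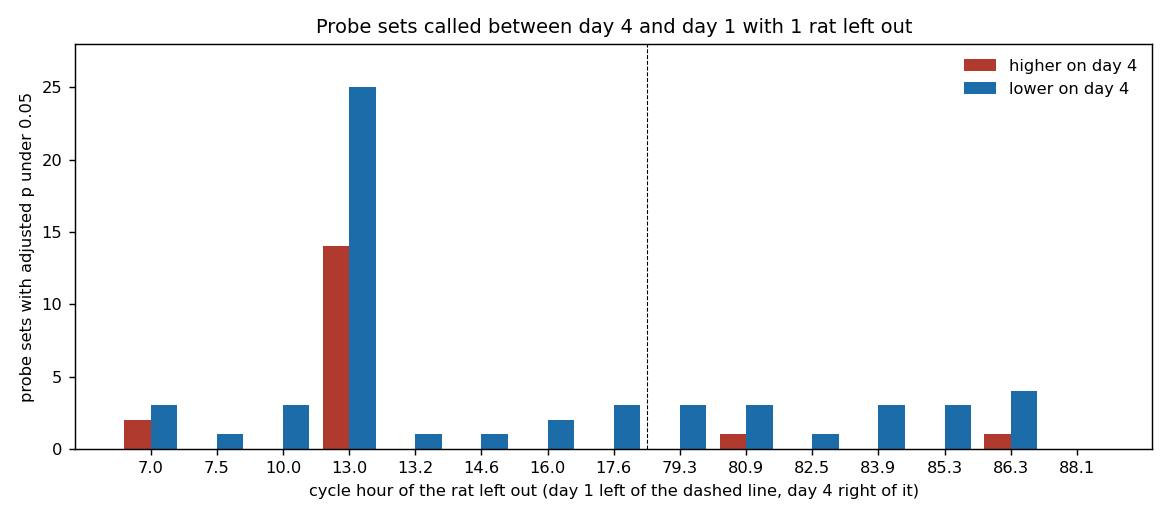
Number of probe sets with adjusted p under 0.05 between day 4 and day 1 (bars, higher and lower on day 4) in fits that each leave out 1 of the 15 rats, named on the x axis by cycle hour. Leaving out the day 1 rat of 13.0 h gives 14 higher and 25 lower; each other fit gives 5 or fewer in all.

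The mean log2 level of hormone-sensing luminal genes, around its overall mean, had a median of 0.70 on day 1, -0.56 on day 3 and -0.02 on day 4, so day 4 lay between the other days. Of 10 tested, 9 were below 0 and 4 had an unadjusted p under 0.05, all lower, with a median difference of -0.22 against 0.007 over all probe sets, of which 3.02% were lower at that p. The median was -0.36 without the rat of 7.5 h, -0.33 without that of 88.1 h and -0.38 with the tissue covariates. No member passed the adjusted threshold. Pgr, the progesterone receptor that estrogen induces, read 132 to 433 on day 1 (median 285), 46.6 to 69.7 on day 3 (median 52.2) and 60.2 to 238 on day 4 (median 127). Of 7 day 4 rats, 4 were below all of day 1, and 6 were above all of day 3.

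Pgr differed from day 1 by -1.01 (SE 0.40, 95% confidence interval -1.84 to -0.19, limma adjusted p = 0.652) and from day 3 by 1.08 (SE 0.41, limma adjusted p = 0.846). Stc2 read 44.3 to 187 on day 1 and 21.4 to 70.6 on day 4, a difference of -1.43 (SE 0.35, limma adjusted p = 0.223). All day 1 rats but that of 13.0 h read 108 or more, above every day 4 rat. Greb1, an estrogen-induced cofactor, differed by -1.40 (SE 0.45) and Cited4, a transcriptional coactivator, by -1.52 (SE 0.42), with adjusted p of 0.462 and 0.289. Greb1, Stc2 and Cited4 were singled out after their values were seen.

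The members of the list with the highest intensity were close to day 1. Igfbp5, an inhibitor of IGF action, differed by -0.06 (SE 0.09), Xbp1, a factor of the secretory pathway, by -0.17 (SE 0.10), and Prlr, the prolactin receptor, by -0.00 (SE 0.14). Areg, the EGF family ligand that carries the estrogen signal to neighbouring cells, had a wide error, at -0.16 (SE 0.62), with 395 to 3700 on day 1 and 543 to 2279 on day 4.

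**Figure D4:**
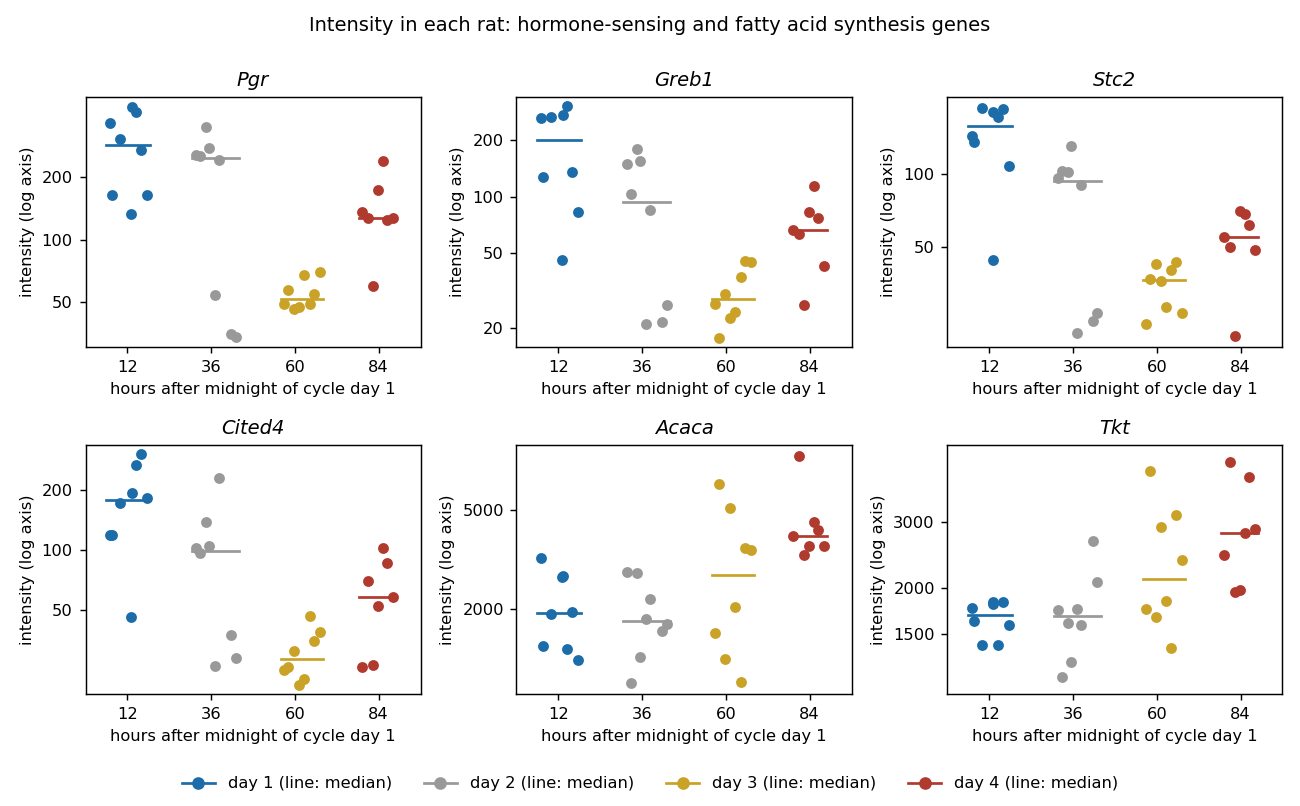
Intensity (log axis) in each of 31 rats against hours after midnight of cycle day 1, for 4 hormone-sensing genes (Pgr, Greb1, Stc2, Cited4) and 2 of fatty acid synthesis (Acaca, Tkt); lines are day medians. Pgr stands at a median of 127 on day 4, between 52.2 on day 3 and 285 on day 1, and Acaca and Tkt on day 4 lie above all day 1 rats.

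Genes that make fatty acids lay mostly above their day 1 level. Of 20 tested, 17 were above 0, 8 were higher and 1 lower at an unadjusted p under 0.05, and the median difference was 0.48. Over all probe sets 3.45% were higher and 3.02% lower at that p, and 47.6% were below 0. No member passed the adjusted threshold. Acaca, the acetyl-CoA carboxylase that makes the first committed product, read 1260 to 3220 on day 1 and 3291 to 8175 on day 4, a difference of 1.1 (SE 0.32, limma adjusted p = 0.341). Tkt, a transketolase of the pentose phosphate path, read 1405 to 1831 and 1952 to 4350, a difference of 0.77 (SE 0.20, limma adjusted p = 0.258). In both genes every day 4 rat was above every day 1 rat.

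Slc25a1, the mitochondrial citrate carrier, differed by 0.80, Pc, pyruvate carboxylase, by 0.98, Me1, malic enzyme, by 0.93 and Elovl6, a fatty acid elongase, by 1.58, with adjusted p from 0.400 to 0.630. Of the members with the highest intensity, Fasn, the fatty acid synthase, was at 0.64 (SE 0.23), Scd at 0.89 (SE 0.64), Thrsp at 0.20 (SE 0.19) and Elovl5 at -0.28 (SE 0.10). Adipocyte markers had a median difference of 0.13, with 5 of 17 higher at an unadjusted p under 0.05, against 3.45% over all probe sets. Among the 5 was the insulin-dependent glucose carrier Slc2a4 at 0.94 (SE 0.28, limma adjusted p = 0.375). With the mean levels of adipocyte, muscle, luminal and lymphocyte markers as covariates, the median of the fatty acid list was 0.22, with 4 higher and 1 lower. It was 0.31 with array weights. The adipocyte median was 0.06 without the rat of 17.6 h.

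Respiratory chain transcripts differed little but in a single direction. All 38 members tested had a difference at or above 0, with a median of 0.15 and a range from 0.00 to 0.29, and 8 had an unadjusted p under 0.05, or 4 with a median of 0.11 when the tissue marker levels were covariates. Over all probe sets 3.45% were higher at that p and 47.6% were below 0. Their 95% intervals lay within 1 log2 unit in 38 of 38. The shift was not particular to day 4. The list median was 0.10 for day 2 minus day 1, 0.13 for day 3 minus day 1 and 0.03 for day 4 minus day 3. As mean log2 level around the overall mean, day 1 had the lowest median, at -0.12, against 0.01, 0.05 and 0.06 on days 2, 3 and 4. Uqcrc2, a core subunit of complex III, read 2463 to 3146 on day 1 and 3176 to 3581 on day 4 without overlap, a difference of 0.21 (SE 0.07, limma adjusted p = 0.424). Cox4i1 and Cox6c of complex IV, among the members with the highest intensity, were at 0.02 and 0.08. Cytosolic ribosomal proteins, by contrast, had a median of 0.01 over 30 members, from -0.03 to 0.09. That contrast was not tested.

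Among basal and myoepithelial markers, several contractile genes, which smooth muscle of vessels also makes, were above their day 1 level, and the basal keratins were not. None passed the adjusted threshold. Myh11 read 976 to 1302 on day 1 and 1363 to 1987 on day 4, a difference of 0.48 (SE 0.15, limma adjusted p = 0.386). Actg2 was at 0.62 (SE 0.21), Tagln at 0.39 (SE 0.13) and Mylk at 0.30 (SE 0.11), with adjusted p from 0.523 to 0.579, all of the smooth muscle apparatus. Dimmer probe sets of Myh11 and Mylk were at 0.23 (SE 0.18) and 0.11 (SE 0.16). Cnn1, also contractile, was at 0.40 (SE 0.18, limma adjusted p = 0.721). Other members of the list were nearer to 0 or below it: Acta2 at 0.24 (SE 0.20), Smtn at 0.22 (SE 0.18), Cav1 at 0.02, Lmod1 at -0.03 and Des at -0.07. The basal keratins Krt14, at -0.25 (SE 0.21), Krt5, at -0.12 (SE 0.20), and Krt17, at -0.16 (SE 0.24), were below 0, as was Tp63, the transcription factor of basal cells, at -0.25 (SE 0.14). Oxtr, the oxytocin receptor, was at -0.87 (SE 0.40, limma adjusted p = 0.723). Over the 15 basal markers the median was 0.02, with 5 higher and 1 lower at an unadjusted p under 0.05, against 3.45% and 3.02% over all probe sets.

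Luminal markers had a median of -0.08 over 19 members. At an unadjusted p under 0.05, 2 were higher and 2 lower, against 3.45% and 3.02% over all probe sets. The higher were Aldh1a3 at 0.69 (SE 0.22) and Krt7 at 0.43 (SE 0.21). The lower were Ehf at -0.61 (SE 0.23) and Prom1 at -0.49 (SE 0.21). Of the members with the highest intensity, Krt18, a keratin of luminal cells, was at 0.18, Krt19 at -0.13, Epcam at -0.16 and Cd24 at -0.06. The milk proteins Csn1s1, a casein, at 0.09 (SE 0.15) and Lalba, alpha-lactalbumin, at -0.15 (SE 0.16) differed little, and all day 4 rats but 1, for Lalba, read within the day 1 range. Over the 14 milk protein genes tested the median was -0.15, and only 7 intervals lay within 1 log2 unit. Some had wide errors, such as Csn2 at 0.21 (SE 1.03) and Wap at -0.71 (SE 1.03). Lpo was at -0.76 (SE 0.37, limma adjusted p = 0.763). Csap1, common salivary protein 1, read 49.1 to 267 on day 1 and 279 to 1693 on day 4 without overlap. It differed by 1.95 (SE 0.60, limma adjusted p = 0.424) from day 1 and by -1.82 (SE 0.62, limma adjusted p = 0.846) from day 3, where it read 896 to 4313.

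Cell division genes had wide errors. None of 20 mitosis genes had an unadjusted p under 0.05. While 47.6% of all probe sets were below 0, 19 of the 20 were above it. Their median was 0.50, against 1.56 for day 3 minus day 1. Without the rat of 82.5 h it was 0.32. Mki67, a marker of dividing cells, read 27.4 to 107 on day 1 (median 42.3) and 61.0 to 164 on day 4 (median 77.9), a difference of 0.75 (SE 0.52). Cdk1 was at 0.79 (SE 0.51) and Ccnb2 at 0.96 (SE 0.57), while the interval was within 1 log2 unit for only 5 of the 20. Genes of DNA replication had a median of 0.13, with 20 of 23 intervals within 1 log2 unit, and Pcna was at -0.01 (SE 0.17).

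Matrix genes held the called Thbs2 beside members above 0. Of 28 collagen and matrix genes 24 were above 0, with a median of 0.17, and 5 were higher and 2 lower at an unadjusted p under 0.05, against 3.45% and 3.02% over all probe sets. The median was 0.06 with array weights, 0.10 without the rat of 17.6 h and 0.11 without that of 7.5 h. Col3a1 at 0.14 (SE 0.09), Col1a1 at 0.14 (SE 0.17) and Dcn at 0.01 (SE 0.06) were close to day 1. Postn, periostin, was at 0.38 (SE 0.12, limma adjusted p = 0.452), Lum, lumican, at 0.59 (SE 0.22) and Tnc, tenascin C, at 1.33 (SE 0.46). Mmp11, a stromal protease, read 180 to 929 on day 1 and 87.4 to 238 on day 4, a difference of -1.51 (SE 0.41, limma adjusted p = 0.280).

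Genes of the secretory pathway and unfolded protein response were below 0 in 22 of 26 members, with a median of -0.11 and 4 lower at an unadjusted p under 0.05, against 47.6% below 0 and 3.02% lower over all probe sets. With the tissue covariates 2 were lower. Manf, an endoplasmic reticulum stress protein, was at -0.29 (SE 0.09, limma adjusted p = 0.428) and the chaperone Hspa5 at -0.23 (SE 0.10). Of 16 genes of steroid metabolism 10 were below 0, with a median of -0.09, and 2 were higher and 3 lower at an unadjusted p under 0.05. Star, which brings cholesterol into mitochondria, was at 1.02 (SE 0.36) and Hsd17b12, a reductase of steroids and fatty acids, at 0.51 (SE 0.16). Akr1c15, a relative of steroid reductases, was at -0.87 (SE 0.32), with adjusted p from 0.414 to 0.592 for these 3. Lef1, the transcription factor of WNT signalling, was at 1.03 (SE 0.33, limma adjusted p = 0.462) in a list whose median was 0.05. It read 245 in the day 4 rat of 80.9 h, which held the highest lymphocyte level, and 41.4 to 93.5 in the others of day 4. Of 7 day 4 rats, 6 were above all of day 1. The part of lymphocyte content in this was not tested.

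Immune markers showed no member past the threshold. Macrophage markers were below 0 in 15 of 16, against 47.6% of all probe sets. Their median was -0.15, or -0.07 without the rat of 82.5 h and -0.10 without that of 80.9 h. Lyz2 was at -0.01 (SE 0.13). Lymphocyte markers had a median of 0.33 over 13 members with no unadjusted p under 0.05. Their mean level ran from -0.51 to 0.26 among the day 1 rats, against -0.40 to 1.98 on day 4, where the rat of 80.9 h held the 1.98 and the day 4 median was -0.23. Without that rat the median difference of the list was 0.11. Interferon-stimulated genes had a median of 0.14, with 3 of 21 higher at an unadjusted p under 0.05, against 3.45% over all probe sets, and with the tissue covariates a median of 0.05 and 0 of 21 higher by limma at that p.

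Clock genes, which swing with the hour of the day, were compared after a linear slope on the clock hour. The arm driven by E-boxes and D-boxes had a median of -0.28, with 12 of 13 below 0 and 4 lower at an unadjusted p under 0.05. Over all probe sets 47.6% were below 0 and 3.02% lower at that p. The 4 were Per2 at -0.61 (SE 0.24), Hlf at -0.44 (SE 0.17), Tef at -0.40 (SE 0.17) and Bhlhe41 at -0.28 (SE 0.13). Per1, at -0.47 (SE 0.25), did not reach that p, and Bmal1, which runs in the opposite phase, was at 0.58 (SE 0.25). Adjusted p for these genes ran from 0.612 to 0.822. Nr1d1, the member of the arm above 0, was at 0.31 (SE 0.45, limma adjusted p = 0.973). Bmal1 read 24.8 to 244 on day 1 and 24.8 to 268 on day 4, nearly the same range. The list median was -0.33 with no clock term and -0.30 with cosine terms, and it was -0.16 without the rat of 83.9 h and -0.17 without that of 82.5 h.

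**Figure D5:**
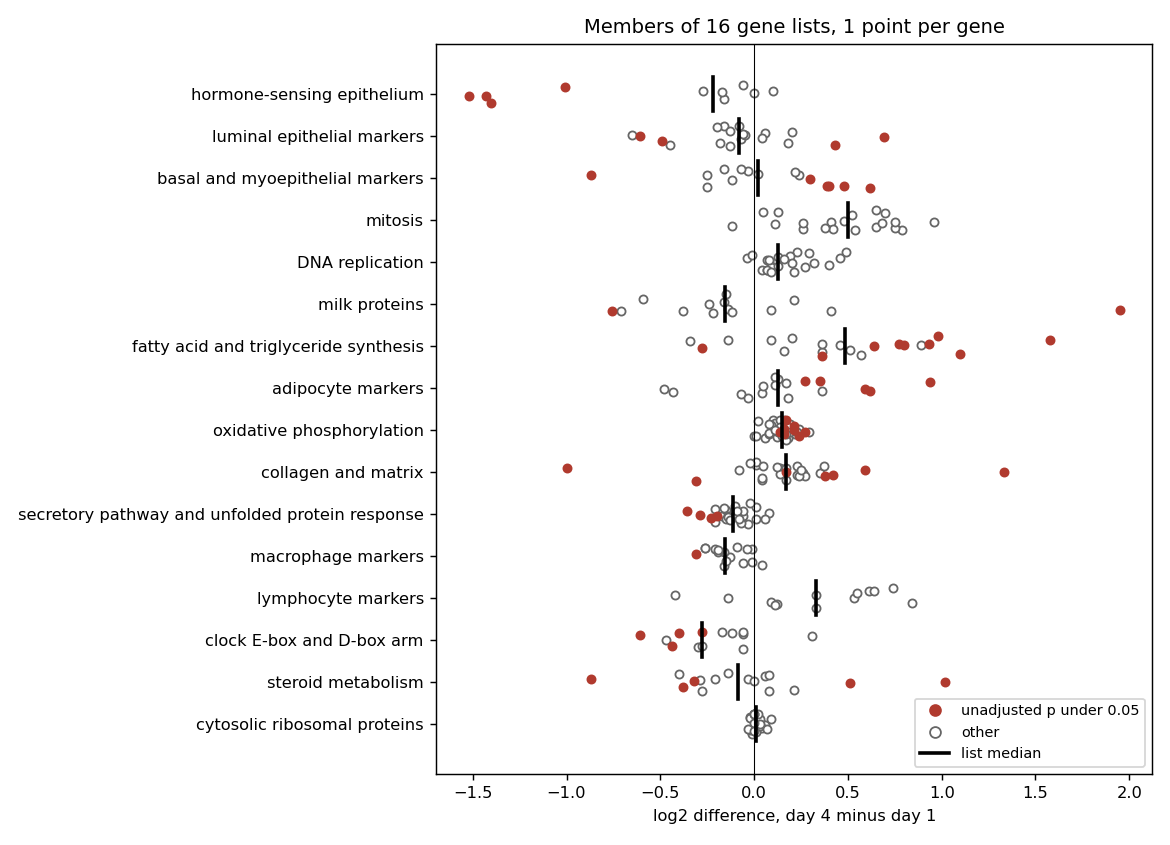
Log2 difference of day 4 minus day 1 for the members of 16 gene lists, 1 point per gene; filled points have an unadjusted p under 0.05 and bars are list medians. Fatty acid synthesis (median 0.48) lies mostly above 0, hormone-sensing genes (-0.22) reach lowest, respiratory chain genes (0.15) are all at or above 0, and ribosomal proteins (0.01) stay at 0; of all points shown, only Thbs2 passed the adjusted threshold.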

How the data were processed

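RNA of mammary glands from 32 rats was hybridised to 1 Affymetrix Rat 230 2.0 array each. The authors made the deposited intensity values, on a linear scale, from the scanned arrays with GC-RMA in GeneSpring, which corrects background by probe sequence and normalises all arrays together (its version is not given in the sources used here). The number of arrays limits the precision, and each time point holds 1 rat. The sources differ on the tissue: the paper describes frozen glands 4 to 6 extracted with TriZol and a column, and the labels gland 4 kept in a stabilising solution and a column alone, on "mice". No batch is given.

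Of 31099 probe sets, 57 control sets were left out. The array of 40 h, which the study left out as apparently corrupted, was not fitted. A probe set was kept where it reached 10 on each of the other 31 arrays, which left 21068. Log2 values were fitted with limma 3.58.1 in R 4.3.3 (day as 4 groups, clock hour centred at 12.5 h, moderated spread with 29.54 degrees of freedom) and adjusted by Benjamini-Hochberg. Data were simulated for 21068 probe sets, with 50 changed at each size. The fit recovered 60% of day 4 minus day 1 changes of 0.5 log2 units, 96% of 1, 92% of -1 and 100% of 2, with 3.87% of calls false. The simulated noise was drawn for each probe set on its own, without genes that move together or rats that stand apart. Recovery in the real data was not tested and may be lower.

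Symbols came from the platform annotation, updated through Entrez identifiers with the RefSeq GRCr8 gene table. Of the probe sets kept, 15568 had a single symbol, 353 several and 5147 none. Promoters were found for 7 of 9 genes looked up. Named were genes past the threshold, those of smallest p up to 10 in each direction, the 10 genes with a symbol that changed most from day 2 to day 3 each way, the brightest members of the lists, Pgr, Csap1, Per1 and Bmal1. The other list members named were picked after their values were seen, most for a low p or a large change. The probe set of highest mean intensity stood for a gene in the lists. Genes named by p-value were shown by their probe set of smallest p. Those named by the change from day 2 to day 3 were shown by that of largest change there. The members of the comparison and the gene lists were chosen with earlier results of these data known. Alternatives covered the arrays, the clock term, the filter, quantile normalisation, array weights, an intensity trend, tissue covariates and leaving out each rat. Python 3.11.15, numpy 2.4.6, pandas 2.3.3 and matplotlib 3.10.9 were used.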

Additional observations from a re-analysis of the deposited data

Results flagged for a closer look

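Within day 1 or within day 4, a rat stood far from the others of its day in 17 of 182 groups of values (91 probe sets), where chance flags about 1 in 20 groups. The day 1 rat of 13.0 h was low for Sae1 (intensity 923), Plet1 (371), LOC100910319 (24.9) and Stc2 (44.3). The day 4 rat of 82.5 h was low for Stc2 (21.4) and high for the division genes Ccnb2 (207) and Mki67 (164) and for Actg2 (1205). Its hormone-sensing list, at -0.60, was the lowest of day 4, and its muscle markers, at -3.53, were too. The day 4 rat of 80.9 h was high for Acaca (8175) and Hsd17b12 (2282) and low for Ppip5k1 (78.8), and held the highest lymphocyte level of day 4, at 1.98. Single further values were Ggh at 534 in the rat of 86.3 h, Tnc at 19.5 at 83.9 h and Krt8 at 1584 at 79.3 h, all on day 4, and Acly at 5547 at 7.0 h, Manf at 2799 at 17.6 h and Krt8 at 2481 at 17.6 h, all on day 1.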

How the results depend on the processing

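With 5 calls, small shifts in p change the count. The fit of the 15 arrays alone, which holds fewer samples, gave 0 higher and 0 lower probe sets. Without a clock term 0 were higher and 1 lower. Cosine terms, a clock slope for each day, no filter (more probe sets tested), a filter at 32 and tissue covariates each gave 0 higher, and array weights 3 higher. Leaving out each rat gave 0 to 14 higher and 0 to 25 lower, with 39 in all without the rat of 13.0 h and 0 without that of 88.1 h. Counts were 1 without the rats of 7.5, 13.2, 14.6 or 82.5 h, and 2 without that of 16.0 h. They were 3 without those of 10.0, 17.6, 79.3, 83.9 or 85.3 h. The cause of these shifts was not tested.

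The number of probe sets bounded within 1 log2 unit stayed within 1.5 times in all fits, from 15270 with the filter at 32 (fewer probe sets) to 30217 with none. Counts at an unadjusted p under 0.05 moved by over 1.5 times only with array weights: to 2028 for day 2 against day 1, 4453 for day 3 against day 2 and 2743 for day 4 against day 2. For day 4 against day 1 they ran from 1026 to 1772. The muscle marker median ranged from -1.48 with array weights to 0.01 without the rat of 82.5 h. No paired analysis was possible because the rats carry no replicate numbers in the labels and each was killed at its own hour.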
